A study of Arabidopsis thaliana with 15 samples.

Results

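The effect of losing DME was examined in leaves that already carried mutant alleles of ROS1, DML2 and DML3. The comparison set the 3 drdd libraries (replicates B, C and D) against the 4 rdd libraries (replicates A to D), chosen by their titles, and covered 18598 tested genes of the 37336 identifiers in the count files. These are 7 of the 15 libraries of the study. All were made from polyadenylated RNA of the fifth rosette leaf of Arabidopsis thaliana at day 21, from plants in long days (16 h of light, 22 °C, 50% humidity). The rdd plants carry ros1-3, dml2-1 and dml3-1, and the drdd plants carry the same alleles plus dme-2. Both also carry the transgene pAGL61::DME, as do the remaining groups, a WT segregant (4 libraries) and dme with dme-2 alone (4 libraries). The AGL61 promoter is known for activity in the central cell of the female gametophyte, where DME is needed for seed development. The labels do not say whether replicates are separate plants, so the p-values measure only the spread between these libraries.

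DME, ROS1, DML2 and DML3 are DNA glycosylases of 1 family. They cut 5-methylcytosine out of DNA, and base excision repair then fills the gap with an unmethylated cytosine. ROS1 is best known from vegetative tissue, where it keeps methylation from spreading into genes, and DME from the central cell, where it sets up imprinting. In rdd leaves DME is the family member left without a mutant allele, and in drdd leaves none is left. Several of the genes described overlap another annotated gene, namely ENT6, PROPEP6, AT3G21530, CBF3, PnsB3, FBA5, FAD8, AT3G46600, AT5G66420, AT4G28080 and SAT32. Since the strand setting of the counts is not given in the sources used here, reads of such neighbours cannot be told apart.

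The 7 libraries held between 9190099 counts (rdd B) and 23302135 counts (rdd D) in genes, with a median of 11384193. The unit of level is CPM, a count rescaled so that all libraries have the same total, with TMM factors for their composition. The leaf origin was checked with the genes for the Rubisco small subunits and Rubisco activase, whose summed level was 32039 to 51582 CPM. Of 10 shoot meristem and floral organ markers WUS and CLV3 had no count, and PI had 371 counts in rdd D against 0 to 3 in each of the others. Over the 500 most variable genes, rdd B stood apart from the other rdd libraries, at -16.5 on the first component (52.0% of the variance) against 26.9 to 37.4. It was also the rdd library with high salicylic acid defence genes, with a mean of 5.24 log2 CPM over 22 genes against 1.52 to 2.16. Across WT A to D this mean was 5.25, 2.21, 4.62 and 2.24 log2 CPM, and in dme it was 3.51 to 4.63 log2 CPM, so WT was split as well. On the first component the drdd libraries lay at 7.76 to 30.1 and the dme libraries at -41.4 to -13.3. WT A and WT C lay at -51.7 and -35.7 there, and WT B and WT D at 19.0 and 16.9. Libraries drdd B and drdd C were higher than drdd D in jasmonate and wound genes, as described further on.

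The mutated genes were read first in each library. DME stood at 75.9, 106, 84.8 and 74.8 CPM across rdd A to D and at 77.6, 75.3 and 68.7 CPM across drdd B to D, so the groups overlapped (log2 fold change -0.21, SE 0.14, adjusted p = 0.630). The counts are per gene and can include RNA from both sides of the mutation and from the DME transgene, so they do not test for a complete DME transcript. ROS1, DML2 and DML3 had adjusted p of 0.909, 0.538 and 0.982 between drdd and rdd, with overlapping groups. Among partners of demethylation and genes of base excision repair 0 of 12 tested genes passed (median log2 fold change 0.01), and in the DNA methylation machinery 0 of 30 (median -0.01).

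Each log2 fold change is drdd minus rdd on the log2 scale, with its standard error (SE), and each adjusted p is corrected over all tested genes by Benjamini-Hochberg in edgeR's quasi-likelihood test unless another source is named. At an adjusted p under 0.05, 87 genes differed between drdd and rdd (0.468% of those tested). Of these 60 were lower in drdd (0.323%) and 27 higher (0.145%). Falls were thus the more frequent direction in this fit, but not in the authors' deposited table given below. A change of at least 2-fold was seen in 36 of the lower and 18 of the higher genes, and of at least 4-fold in 18 and 8. The median log2 fold change was -1.21 in the lower genes, 1.38 in the higher genes and 0.01 over all tested genes. In all 87 the CPM of the drdd and rdd libraries did not overlap, which was true of 12.1% of all tested genes. At an unadjusted p under 0.05 there were 2095 genes (11.3%), DESeq2 on the same 15 libraries called 381 (2.05%), and the authors' deposited table lists 605 (3.12%), 324 higher (1.67%) and 281 lower (1.45%). All 87 are among the calls of DESeq2 and of the authors' deposited table in the same direction.

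**Figure D1:**
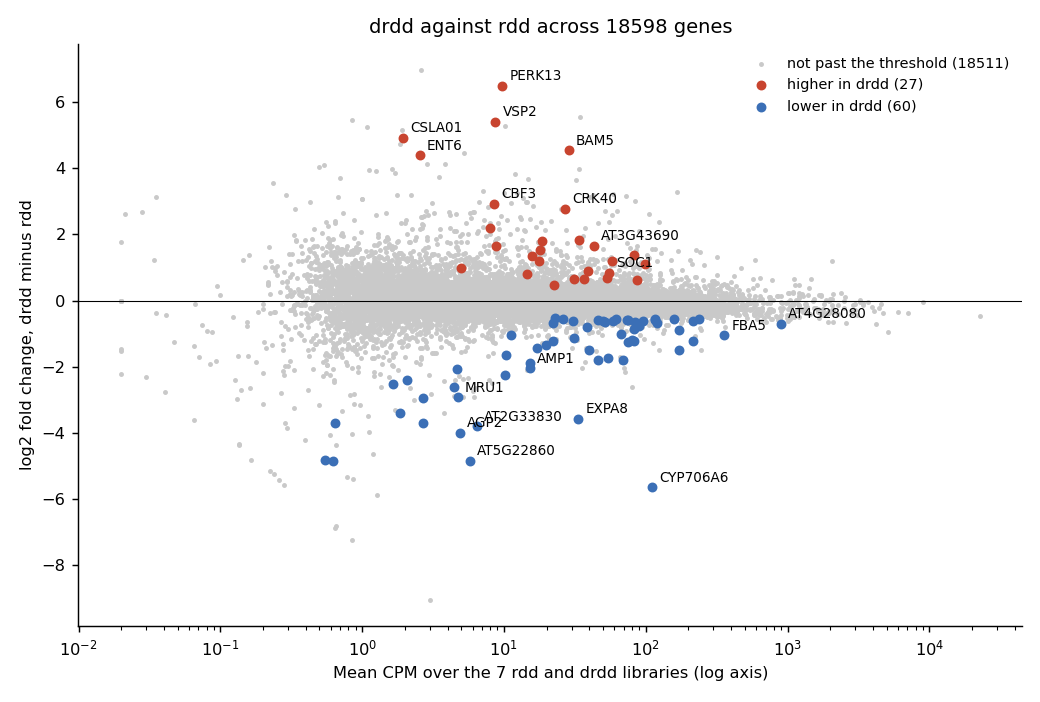
Mean level over the 7 rdd and drdd libraries (CPM, log axis) against the log2 fold change of drdd minus rdd, 1 point per tested gene. The 60 genes lower in drdd (blue) reach down to CYP706A6 at -5.64 and the 27 higher genes (red) up to PERK13 at 6.49; grey points are the 18511 genes that did not pass.

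The number of calls rested on single libraries. It was 19 without drdd C, 25 without rdd C, 32 without drdd B, 33 without rdd D, 34 without rdd A, 45 without WT C, 51 without dme A, 52 without dme B and 53 without WT B, which enter through the shared estimate of spread. There were 17 genes that passed whichever 1 library was left out, 14 lower and 3 higher. The lower ones were CYP706A6, AMP1, AT5G22860, AT2G33830, EXPA8, AGP2, MRU1, AT5G35480, AT4G01490, AT4G13495, AT3G61210, AT3G23080, AT4G17810 and RbcX1, and the higher ones PERK13, ENT6 and AT1G06640. With the 7 rdd and drdd libraries alone 50 genes passed, of which 37 were among the 87. AT5G35480 missed the threshold in that fit (adjusted p = 0.0576). Lost calls described below refer to libraries left out, and only in part to that fit.

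The largest fall belonged to CYP706A6, a cytochrome P450 gene on chromosome 4. It had 224, 148, 190 and 204 CPM across rdd A to D and 3.08, 3.44 and 5.11 CPM across drdd B to D (log2 fold change -5.64, SE 0.29, adjusted p = 1.33e-07). Every drdd library was far below every other library, with a WT mean of 166 CPM and a dme mean of 177 CPM. Among the 42 called genes named by rule it was the one that passed under each of 24 alternative settings. Its adjacent relative CYP706A5 had means of 49.1 CPM in rdd and 26.3 CPM in drdd and did not pass (log2 fold change -0.89, adjusted p = 0.353). Reads of related P450 genes can be shared, so the split between such copies is uncertain.

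AMP1, a peptidase gene of the M28 family whose mutants form leaves faster, had the second lowest adjusted p and was named here after its values were seen. Its levels were 17.3, 22.8, 25.9 and 24.6 CPM across rdd A to D and 4.47, 6.69 and 5.41 CPM across drdd B to D (log2 fold change -2.05, SE 0.17, adjusted p = 4.68e-05). All rdd libraries were above the WT and dme means of 13.7 and 12.4 CPM, and all drdd libraries were below them.

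AT5G22860, annotated as a serine carboxypeptidase of the S28 family, had 11.4, 6.17, 10.5 and 10.99 CPM across rdd A to D and 0.257, 0.0983 and 0.688 CPM across drdd B to D (log2 fold change -4.84, SE 0.43, adjusted p = 7.02e-05). EXPA8, which encodes a wall-loosening expansin, fell from 54.9 ± 16.6 CPM (SD, n = 4) to 4.80 ± 2.65 CPM (SD, n = 3; later pairs of this form are the same statistics for rdd and drdd), with 2.003, 7.28 and 5.11 CPM in the drdd libraries (log2 fold change -3.56, SE 0.41, adjusted p = 0.00133). AGP2, an arabinogalactan protein gene of the cell surface, had 7.49, 7.84, 7.83 and 9.74 CPM across rdd A to D and 1.03, 0.197 and 0.0983 CPM across drdd B to D (log2 fold change -3.99, SE 0.51, adjusted p = 0.00197). In these 3 genes drdd was below all of the other 12 libraries. The WT means were 14.5 CPM for AT5G22860, 55.0 CPM for EXPA8 and 4.03 CPM for AGP2, so rdd was above WT in AGP2.

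**Figure D2:**
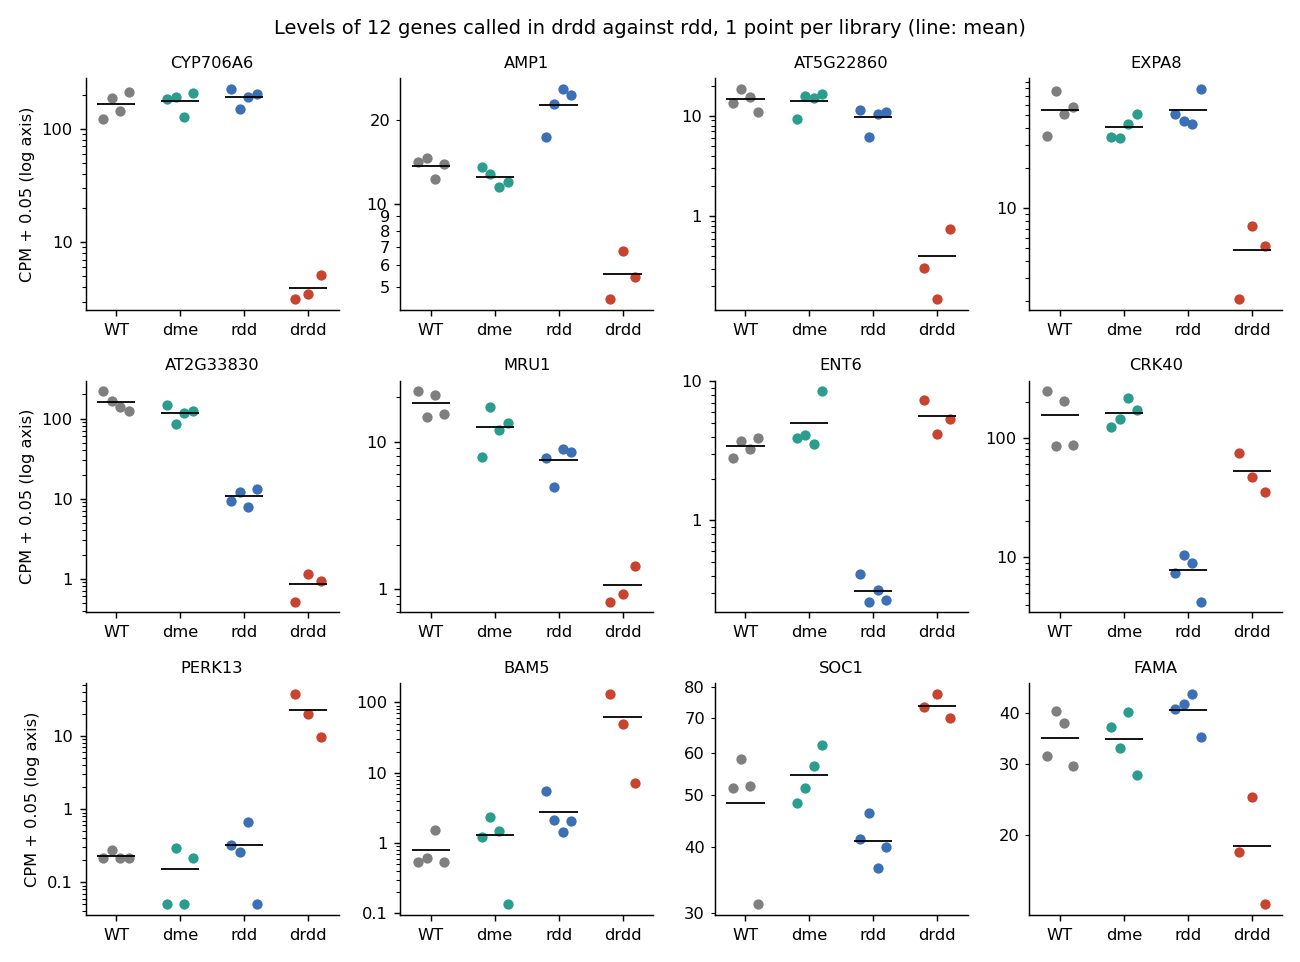
Levels of 12 genes called in drdd against rdd, as CPM + 0.05 on log axes, 1 point per library for WT, dme, rdd and drdd, with a line at each group mean. CYP706A6, AT5G22860 and EXPA8 are low in the 3 drdd libraries alone, AT2G33830 steps down from WT to rdd to drdd, and ENT6 is low in the 4 rdd libraries alone.

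In 47 of the 60 lower genes all drdd libraries lay below all 12 others, against 1.19% of all tested genes. In 16 of the 27 higher genes they lay above them, against 0.785% (1.97% on either side). The 87 genes were called for a difference from rdd, and in all of them drdd lay beyond every rdd library. The shares over all tested genes are therefore not a like baseline. Of the 47, 6 had rdd also below all WT and dme libraries, so that levels stepped down from WT and dme to rdd and again to drdd. These were AT2G33830, AT4G13495, AT3G46370, AT4G01490, AT4G13575 and AT5G35480. AT2G33830, a gene of the dormancy and auxin associated family, had a mean of 162 CPM in WT and 119 CPM in dme. It had 9.39, 11.9, 7.83 and 13.3 CPM across rdd A to D and 0.462, 1.08 and 0.885 CPM across drdd B to D (log2 fold change -3.80, SE 0.35, adjusted p = 9.34e-05). The noncoding RNA AT4G13495 had means of 589 CPM in WT, 614 CPM in dme, 236 CPM in rdd and 84.6 CPM in drdd (drdd minus rdd -1.48, SE 0.19, adjusted p = 0.00197). It overlaps 3 other annotated genes, so its level is uncertain.

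The neighbours MRU1 and AT5G35480 were the one pair of adjacent tested genes that were both called. MRU1, named for its rise in a methionine over-accumulating mutant, had 7.76, 4.91, 8.88 and 8.49 CPM across rdd A to D and 0.770, 0.885 and 1.38 CPM across drdd B to D (log2 fold change -2.93, SE 0.33, adjusted p = 7.57e-04). AT5G35480, an uncharacterized gene, had a mean of 59.7 CPM in WT, 30.7 CPM in dme, 6.98 CPM in rdd and 1.63 CPM in drdd (drdd minus rdd -2.07, SE 0.28, adjusted p = 0.00290). Its dme libraries, at 25.2 to 38.7 CPM, were all below its WT libraries, at 48.3 to 68.7 CPM. That difference did not pass (dme minus WT -0.96, adjusted p = 0.674). Both were highest in WT and lowest in drdd.

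Some of the fallen genes were close to the limit of detection in drdd. AT3G46370, a leucine-rich repeat receptor kinase gene, had 50 counts over the 4 rdd libraries and 1 over the 3 drdd libraries, a 36.1-fold difference with a 95% interval of 6.18 to 1452 for counting error alone. AT4G00070, a RING/U-box gene with similar levels in WT, dme and rdd, had 61 counts and 3 counts, which is 14.7-fold (95% interval 4.79 to 73.1). AT4G01490, an annotated pseudogene, fell from 4.38 ± 0.555 to 0.378 ± 0.319 CPM on average (log2 fold change -3.70, SE 0.52, adjusted p = 0.00463). Of these the call of AT3G46370 was lost without rdd C, drdd B, drdd C or drdd D, and that of AT4G00070 stayed only without WT A, WT D, dme C, dme D, rdd A or rdd B.

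The rest of the 12 largest falls were PROPEP6, AT5G44578 and AT3G21530. PROPEP6, the precursor gene of an elicitor peptide, had means of 2.99 CPM in rdd and 0.312 CPM in drdd (log2 fold change -3.40, SE 0.60, adjusted p = 0.0285). AT3G21530, a DNase I-like gene, had means of 6.98 and 1.11 CPM (log2 fold change -2.63, SE 0.49, adjusted p = 0.0349). The uncharacterized AT5G44578 had means of 4.27 and 0.577 CPM (log2 fold change -2.95, SE 0.57, adjusted p = 0.0397). The WT and dme means of all 3 were close to those of rdd, between 3.18 and 3.25 CPM for PROPEP6, 8.64 and 8.86 CPM for AT3G21530, and 3.41 and 3.46 CPM for AT5G44578. The call of PROPEP6 was lost without rdd C, rdd D, drdd B or drdd C, and that of AT3G21530 without dme B, rdd A, rdd C, rdd D or any 1 drdd library. The call of AT5G44578 stayed only without WT A, WT D, dme C, dme D, rdd B or drdd D.

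The 6 most abundant of the fallen genes over the 7 libraries were AT4G28080, FBA5, F2KP, MRL1, PnsB3 and AT4G13495, the noncoding RNA described above, with log2 fold changes from -1.48 to -0.55. PnsB3, a subunit of the chloroplast NDH complex of cyclic electron flow, had 309, 252, 278 and 296 CPM across rdd A to D and 92.3, 118 and 154 CPM across drdd B to D (log2 fold change -1.22, SE 0.19, adjusted p = 0.0134). FBA5, a fructose-bisphosphate aldolase gene, fell from 459 ± 27.8 to 223 ± 68.3 CPM on average (log2 fold change -1.04, SE 0.20, adjusted p = 0.0400). MRL1, whose pentatricopeptide protein stabilises the plastid mRNA for the large Rubisco subunit, fell from 253 ± 20.6 to 167 ± 11.1 CPM on average (log2 fold change -0.60, SE 0.12, adjusted p = 0.0420). RbcX1, a chaperone gene of Rubisco assembly, fell from 106 to 46.5 CPM on average (log2 fold change -1.18, SE 0.17, adjusted p = 0.00527) and was named here after its values were seen. F2KP, which makes and breaks the regulator fructose-2,6-bisphosphate, fell from 276 ± 28.3 to 189 ± 9.43 CPM on average (log2 fold change -0.55, SE 0.11, adjusted p = 0.0450), and AT4G28080 fell from 1074 to 665 CPM on average (log2 fold change -0.69, SE 0.14, adjusted p = 0.0467).

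In each of PnsB3, FBA5, MRL1, RbcX1, F2KP and AT4G28080 all drdd libraries were below all rdd libraries. The call of PnsB3 was lost without drdd B or drdd C, while RbcX1 kept its call throughout. The call of FBA5 stayed only without WT A, dme B, dme C, dme D, rdd B or drdd D, that of AT4G28080 only without WT A, dme C, rdd B or drdd D, that of MRL1 only without WT A, WT D or dme C, and that of F2KP only without WT A, dme C or rdd B. Of the lists that cover photosynthesis, the 30 genes of the photosystems and light harvesting had 0 calls and a median log2 fold change of -0.02. The 5 genes for Rubisco small subunits and Rubisco activase also had 0 calls, with a median of -0.45 and negative values in all 5. At an unadjusted p under 0.05 there were 4 of the 5, DESeq2 called 3, and 3 are called lower in the authors' deposited table. For RBCS1B the means were 3092 CPM in rdd and 1948 CPM in drdd (log2 fold change -0.67, SE 0.17, adjusted p = 0.125), and the groups did not overlap.

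In a window of 500 genes on either side of DME in gene order, called genes were about as frequent as over all tested genes. There 3 of 595 tested genes were called (0.504%, against 0.468% over all tested genes), and all 3 were lower in drdd. All 3 lay within 120 genes of DME, and the share in a narrower window was not computed. PAL3, a phenylalanine ammonia-lyase gene 44 genes away, had 22.9, 16.5, 29.4 and 19.7 CPM across rdd A to D and 6.83, 4.33 and 6.78 CPM across drdd B to D (log2 fold change -1.88, SE 0.27, adjusted p = 0.00626). FAD8, a chloroplast fatty acid desaturase gene 120 genes away, fell from 108 ± 13.5 to 63.6 ± 8.44 CPM on average (log2 fold change -0.77, SE 0.15, adjusted p = 0.0438). AT5G04810, a pentatricopeptide repeat gene 29 genes away, fell from 183 ± 9.35 to 125 ± 9.48 CPM on average (log2 fold change -0.55, SE 0.10, adjusted p = 0.0307). The call of PAL3 was lost without drdd C, and that of AT5G04810 without WT C, rdd A, rdd C, rdd D, drdd B or drdd C. That of FAD8 stayed only without WT A, WT D, dme C, rdd B or drdd D.

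By chromosome, chromosome 4 held 27 of the 87 calls, which is 31.0% of them against 15.3% of the tested genes. Its share of called genes was 0.948%, whereas chromosomes 1, 2, 3 and 5 had 0.307%, 0.534%, 0.379% and 0.371%. On chromosome 4, 19 genes were lower and 8 higher, and the first 1000 annotated genes held 10 of them: 6 of 281 tested genes in the first 500 (2.14%) and 4 of 117 in the next 500 (3.42%). CRK40, ENT6, AT4G05070, AT4G01490 and AT4G00070 are among these 10. This chromosome carries DML3, which lies in a stretch of 500 genes with 3 calls among 311 tested genes (0.965%).

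**Figure D3:**
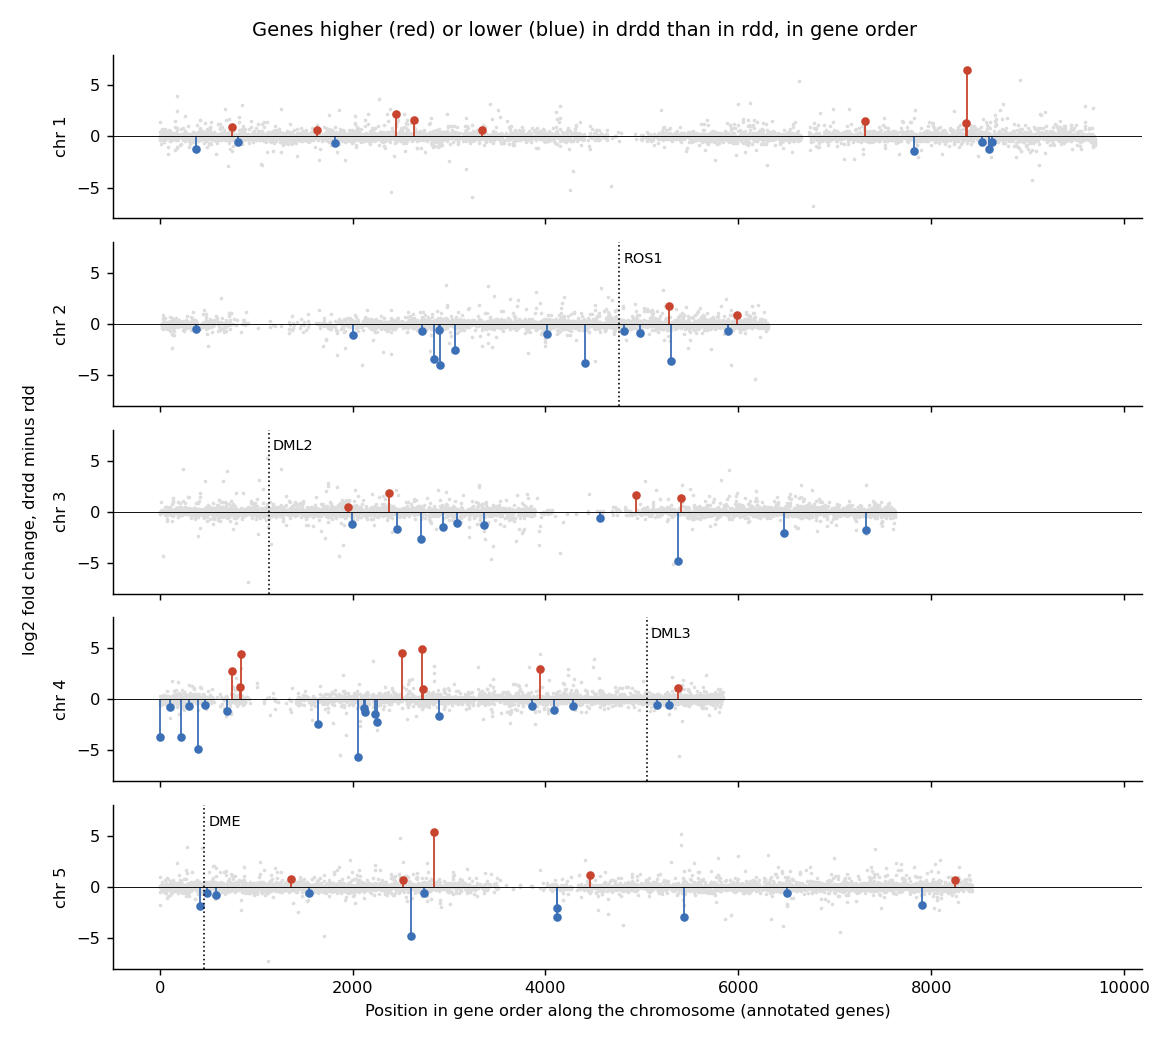
Log2 fold change of drdd minus rdd for tested genes in annotated gene order along chromosomes 1 to 5. Stems mark the called genes, red where higher and blue where lower in drdd; dotted lines mark the mutated genes. Chromosome 4 carries 27 of the 87 called genes, and 3 called genes lie within 500 genes of DME.

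The largest rise was that of PERK13, which encodes a proline-rich extensin-like receptor kinase known from root hairs. It had 0.271, 0.209, 0.615 and 0 CPM across rdd A to D and 37.5, 19.7 and 9.63 CPM across drdd B to D (log2 fold change 6.49, SE 0.74, adjusted p = 8.56e-04). The WT and dme means were 0.18 and 0.103 CPM, so drdd stood alone. Of the other 5 root hair markers, RHD6, EXPA7, RSL4 and EXPA18 had no count in the 7 libraries and LRX1 had 3, so the summed marker level of 9.94 to 40.7 CPM in drdd was that of PERK13.

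ENT6, a nucleoside transporter gene, differed in another way. It had 0.361, 0.209, 0.264 and 0.215 CPM across rdd A to D and 7.34, 4.13 and 5.31 CPM across drdd B to D (log2 fold change 4.40, SE 0.38, adjusted p = 7.02e-05). The WT mean was 3.37 ± 0.492 CPM and the dme mean 4.96 CPM, so the rdd libraries were the low ones. The drdd libraries lay within the range of WT and dme only because of dme D at 8.43 CPM, since the other 7 WT and dme libraries reached 4.09 CPM at most and all drdd libraries were above that. Its neighbour MYB74, a MYB transcription factor gene, had means of 0.228 CPM in rdd and 2.04 CPM in drdd and did not pass (log2 fold change 3.07, adjusted p = 0.0801).

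Levels of rdd outside and of drdd inside the WT and dme range were seen in 3 of the 27 higher genes and 5 of the 60 lower genes. Over all tested genes the share was 0.575%. Beside ENT6 the higher ones were AT4G05070, annotated as a wound-responsive protein, and AT3G19030. AT4G05070 had 35.5, 43.9, 31.3 and 38.2 CPM across rdd A to D and 76.4, 84.5 and 94.3 CPM across drdd B to D, beside a WT mean of 85.2 CPM (drdd minus rdd 1.19, SE 0.22, adjusted p = 0.0308). AT3G19030 had means of 56.4 CPM in WT, 96.8 CPM in dme, 15.8 CPM in rdd and 57.3 CPM in drdd (drdd minus rdd 1.85, SE 0.37, adjusted p = 0.0456). The lower ones were AT3G19680, AT1G72430, AT2G44920, AT4G03150 and AT2G03780. Without dme A for AT1G72430 and without WT A for AT2G44920, all drdd libraries would lie below that range. AT3G19680 had means of 26.8 CPM in WT, 16.2 CPM in dme, 77.5 CPM in rdd and 23.4 CPM in drdd (drdd minus rdd -1.73, SE 0.25, adjusted p = 0.00626). Its call was lost without drdd B, and that of AT4G05070 without rdd A, rdd C, rdd D or any 1 drdd library. That of AT3G19030 stayed only without WT A, WT B, dme A or dme C.

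CRK40, a cysteine-rich receptor-like kinase gene, rose in drdd to a level below all WT and dme libraries. It had 7.404, 10.5, 8.88 and 4.18 CPM across rdd A to D and 75.0, 46.9 and 35.0 CPM across drdd B to D (log2 fold change 2.78, SE 0.43, adjusted p = 0.0148), with means of 155 CPM in WT and 162 CPM in dme. The call was lost without rdd A, rdd C, drdd B or drdd C. The annotated pseudogene AT3G43690 was highest in drdd, with means of 10.5 CPM in WT, 22.4 CPM in rdd and 70.7 CPM in drdd (drdd minus rdd 1.66, SE 0.30, adjusted p = 0.0326), a call lost without dme A, rdd C, rdd D or any 1 drdd library.

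Smaller rises with little spread were seen in AT1G06640 and AT5G66420. AT1G06640, annotated as a 2-oxoglutarate and iron dependent oxygenase, had 30.0, 28.3, 26.6 and 28.8 CPM across rdd A to D and 58.5, 54.5 and 47.3 CPM across drdd B to D (log2 fold change 0.91, SE 0.11, adjusted p = 0.00169). AT5G66420 rose from 42.6 ± 4.34 to 67.7 ± 4.61 CPM on average (log2 fold change 0.67, SE 0.10, adjusted p = 0.0105), a call lost without drdd C. Other abundant genes that rose were GSTU13, a glutathione transferase gene (70.1 to 108 CPM), AT3G46600, a GRAS family transcription factor gene (48.9 to 127 CPM), and AT4G36500 (66.7 to 143 CPM), with adjusted p of 0.0400, 0.0438 and 0.0438. WT and dme means were 76.9 and 82.0 CPM for GSTU13, 87.4 and 111 CPM for AT3G46600, and 103 and 140 CPM for AT4G36500. All drdd libraries were above every WT and dme library in GSTU13 and within their range in AT4G36500. The remaining large rises were in ASG8 (9.12 to 31.3 CPM, adjusted p = 0.0382), AT1G21010 (4.54 to 14.4 CPM, adjusted p = 0.0431) and the cellulose synthase-like gene CSLA01. CSLA01 had 0.361, 0, 0.176 and 0.0431 CPM across rdd A to D and 9.35, 2.75 and 0.885 CPM across drdd B to D (log2 fold change 4.93, SE 0.95, adjusted p = 0.0400), so drdd B held most of it. The calls stayed only without WT A, dme C, dme D or drdd D for GSTU13, without WT A, WT B or dme C for AT3G46600, and without WT A, WT B, dme C, rdd B or drdd D for AT4G36500. They stayed only without WT A, dme A, dme C, dme D, rdd B or drdd D for ASG8, without WT A, WT C or dme C for AT1G21010, and without WT A, WT D, dme C, dme D or drdd D for CSLA01.

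Jasmonate is a wound and defence hormone made from chloroplast lipids, and its genes had mostly positive values in drdd against rdd, with few calls. Of 15 tested genes of jasmonate and ethylene output 3 rose and 14 had positive values (median log2 fold change 1.63, against 0.01 over all genes). Of 14 genes of jasmonate synthesis 1 rose and 13 were positive (median 0.90), and of 15 signalling genes 0 passed and 12 were positive (median 0.70, and 0.39 without drdd C). The output genes that rose were VSP2, a vegetative storage protein gene, BAM5, a beta-amylase gene, and JMT, whose enzyme methylates jasmonate.

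VSP2 had 1.35, 0.209, 0.176 and 0.172 CPM across rdd A to D and 14.1, 42.4 and 2.36 CPM across drdd B to D (log2 fold change 5.41, SE 1.02, adjusted p = 0.0400). BAM5 had 5.42, 2.09, 1.41 and 1.98 CPM in rdd and 132, 49.7 and 7.18 CPM in drdd (log2 fold change 4.55, SE 0.84, adjusted p = 0.0400). JMT had 4.70, 2.82, 1.49 and 3.62 CPM in rdd and 21.3, 13.5 and 8.36 CPM in drdd (log2 fold change 2.18, SE 0.43, adjusted p = 0.0416). In each of the 3 genes drdd D was the lowest drdd library and lay closest to rdd. VSP1, the adjacent near copy of VSP2, had 19.1, 49.1 and 0.590 CPM in drdd and overlapped with rdd A at 1.53 CPM (log2 fold change 5.28, SE 1.23, adjusted p = 0.0956). Reads may be shared between both copies.

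AOC4, an allene oxide cyclase gene of jasmonate synthesis, had less spread, at 31.1, 26.8, 26.6 and 33.6 CPM across rdd A to D and 51.2, 44.1 and 43.3 CPM across drdd B to D (log2 fold change 0.65, SE 0.11, adjusted p = 0.0206). Other members with groups that did not overlap missed the threshold, such as the lipoxygenase gene LOX2 (log2 fold change 1.198, SE 0.41, adjusted p = 0.263) and MYC2, the central transcription factor of the pathway (2.37, SE 0.70, adjusted p = 0.209). The call of VSP2 stayed only without WT A, WT D, dme C, dme D, rdd A or drdd D, that of BAM5 only without WT A, dme C, dme D or drdd D, and that of JMT only without WT A, dme B, dme C or drdd D. That of AOC4 was lost without rdd C, drdd B or drdd C. With the 7 rdd and drdd libraries alone VSP2, BAM5, JMT and AOC4 all missed the threshold (adjusted p = 0.151, 0.160, 0.0778 and 0.0746).

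The libraries of drdd differed among themselves in these lists. Over the output genes the mean level was 3.32, 3.47 and 1.18 log2 CPM in drdd B, C and D, and 1.12, 1.58, 0.24 and 0.57 log2 CPM across rdd A to D, so drdd D lay inside the rdd range. Across WT A to D it was 3.66, 0.19, 2.13 and 0.33 log2 CPM, so WT A was above every drdd library. In dme it was 1.09 to 2.30 log2 CPM. The synthesis genes had means of 5.55 to 6.53 log2 CPM in drdd and 5.00 to 5.47 log2 CPM in rdd. Their means were 4.88 to 6.22 log2 CPM in WT and 5.59 to 6.61 log2 CPM in dme. For the rapid wound and touch list, early transcription factor genes such as those of the ZAT, ERF and CBF families, the means were 4.29, 5.88 and 3.42 log2 CPM in drdd and 2.18 to 3.40 log2 CPM in rdd. Its 17 genes had a median log2 fold change of 2.53, which was 1.29 without drdd C, with 16 positive values and 1 rise. The gene that rose was CBF3, a cold-response transcription factor gene, with 2.17, 1.67, 1.85 and 3.02 CPM across rdd A to D and 13.4, 27.0 and 10.3 CPM across drdd B to D (log2 fold change 2.92, SE 0.57, adjusted p = 0.0420). In WT D the level of CBF3 was 16.1 CPM, above drdd B and drdd D. The neighbouring CBF1 and CBF2 also had groups that did not overlap and missed the threshold (adjusted p = 0.220 and 0.264). The call of CBF3 stayed only without WT A, WT C, WT D, dme C, dme D or drdd D. How the leaves were handled before freezing is not given in the labels, and its part in these values was not tested.

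**Figure D4:**
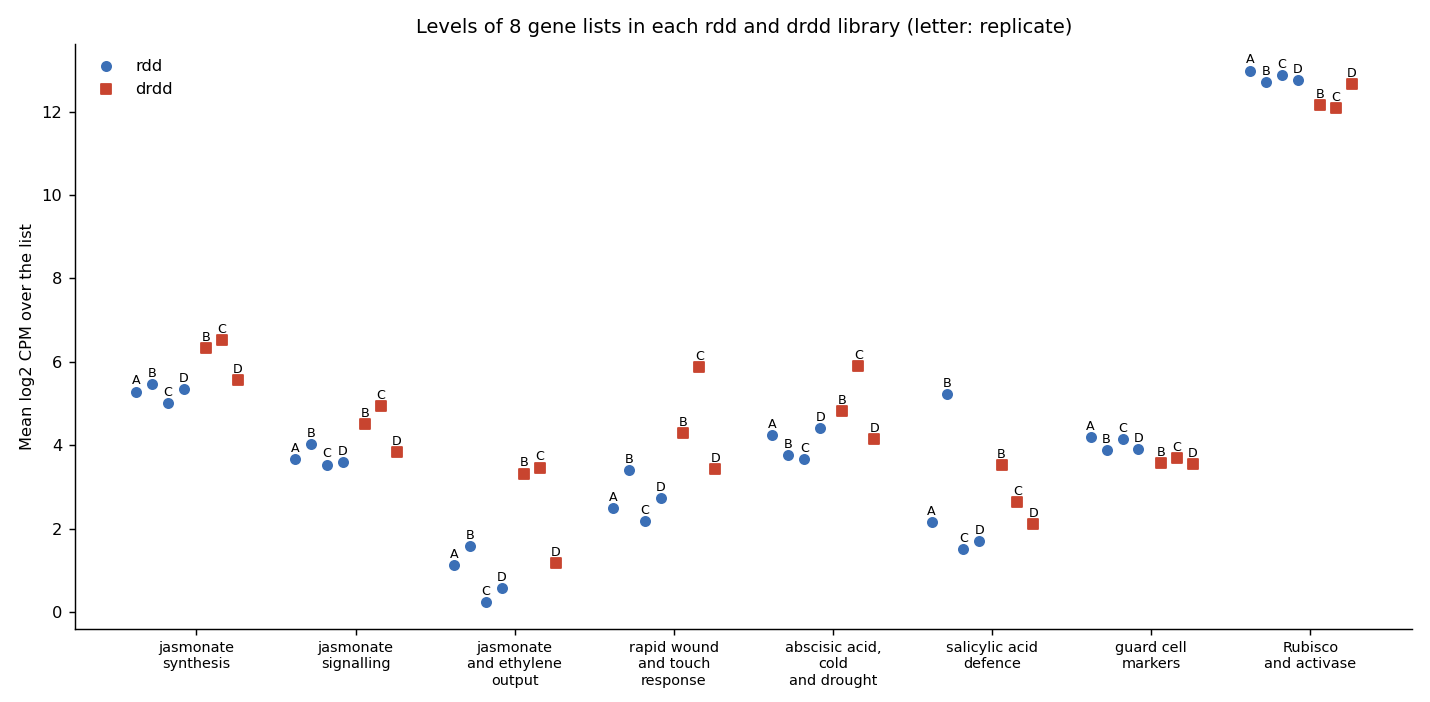
Mean log2 CPM over each of 8 gene lists for the 4 rdd libraries (circles) and 3 drdd libraries (squares), with the replicate letter at each point. In the jasmonate and wound lists drdd B and C lie above drdd D, which is at 1.18 for jasmonate and ethylene output against 0.24 to 1.58 in rdd; rdd B alone is high for salicylic acid defence at 5.24.

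Among other stress lists no gene passed. The 17 genes of abscisic acid, cold and drought had a median of 1.22, and 0.46 without drdd C. NCED3, whose enzyme makes the abscisic acid precursor, had 1.44, 1.99, 1.58 and 3.27 CPM in rdd and 4.36, 23.7 and 17.8 CPM in drdd (log2 fold change 2.83, SE 0.76, adjusted p = 0.154). For 22 genes of salicylic acid defence the median was -0.35, and 0.94 without rdd B, the rdd library with the high level. The 25 immune receptor genes had 0 calls and a median of 0.00, and 0.25 without rdd B.

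Flowering genes were read because FLC, the MADS-box repressor of flowering, lies 655 genes from DME. FLC had 0.722, 1.78, 1.32 and 2.07 CPM across rdd A to D, 88 counts in all, and no count in any drdd library. Against a floor of 3 counts over the 3 drdd libraries this is at least 19.5-fold lower in drdd, and at least 9.98-fold lower without drdd B; floors cover counting error only. The difference did not pass in edgeR (adjusted p = 0.298), whereas DESeq2 gave an adjusted p of 0.00514 and the value 1.45e-04 stands in the authors' deposited table. FLC varied from 0.228 to 17.5 CPM within WT, and this spread enters the edgeR fit. With the 7 rdd and drdd libraries alone FLC did not pass in edgeR either (adjusted p = 0.0611). AT5G01675 is annotated over FLC, so counts of either may be affected.

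SOC1, a promoter of flowering that FLC is known to repress, rose. It had 41.3, 46.2, 36.3 and 39.9 CPM across rdd A to D and 73.3, 77.7 and 70.0 CPM across drdd B to D (log2 fold change 0.85, SE 0.17, adjusted p = 0.0416), and every drdd library was above all 12 others. The call stayed only without WT A, WT B, WT D, dme C, dme D or rdd B. It was the 1 call among 14 tested floral promoters, of which 13 had positive values (median 0.57, and 0.33 without drdd D). FT, the mobile flowering signal, had 4.33, 2.82, 10.7 and 4.74 CPM in rdd and 32.0, 5.80 and 10.6 CPM in drdd, with overlapping groups (adjusted p = 0.434). None of the 23 tested floral repressors passed (median -0.01). MAF5, a relative of FLC, stood at means of 41.7 CPM in rdd and 53.5 CPM in drdd (adjusted p = 0.725).

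FLC was 1 of 5 tested genes with no count in any drdd library and at least 1 count in every rdd library, and 1 gene showed the reverse. None of these 6 was called. With AT5G35935 and AT3G07820, chosen after their values were seen, 3 of the 5 had a mean of at least 1 CPM in rdd. AT5G35935 had 6.86, 12.5, 0.703 and 0.862 CPM across rdd A to D and at most 0.456 CPM in any WT or dme library, so rdd A and rdd B held most of it (at least 69.6-fold lower in drdd, 35.6-fold without drdd B and 37.3-fold without rdd B, adjusted p = 0.0967). AT3G07820, annotated as a pectin lyase-like gene, had 0.271, 1.05, 1.49 and 1.72 CPM in rdd (at least 15.05-fold lower in drdd, 7.69-fold without drdd B, adjusted p = 0.103).

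In the stomatal lineage FAMA fell and the earlier genes did not pass. FAMA, the transcription factor gene that acts when guard cells form, had 40.9, 42.1, 44.7 and 35.0 CPM across rdd A to D and 18.0, 24.8 and 13.4 CPM across drdd B to D (log2 fold change -1.12, SE 0.19, adjusted p = 0.0227). The call was lost without rdd A, rdd C or drdd B, and with the 7 rdd and drdd libraries alone (adjusted p = 0.0631). TMM, a receptor gene of early lineage cells, had 11.2, 12.9, 10.6 and 4.44 CPM in rdd and 13.0, 18.0 and 30.1 CPM in drdd (log2 fold change 1.07, SE 0.55, adjusted p = 0.494). The list had 1 fall among 14 tested genes and a median of 0.32, which was 0.61 without drdd B and 0.06 without drdd D.

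The 7 guard cell markers all had negative values and 0 calls (median -0.36), and their summed level was 126 to 151 CPM in rdd and 99.8 to 113 CPM in drdd. It was 88.9 to 124 CPM in WT and 88.9 to 142 CPM in dme. The drdd libraries thus lay inside the WT range, and the rdd libraries lay above it. The part of these markers in the FAMA result was not tested. In leaf RNA of mixed cells, fewer cells of a type and less RNA per cell cannot be told apart. Markers of phloem (5 genes), xylem (10) and trichomes and epidermis (11) had 0 calls, with medians of -0.04, 0.19 and 0.14 (xylem -0.26 and trichomes and epidermis 0.02 without drdd C). The 19 cell cycle genes and the 19 clock genes had 0 calls as well (medians 0.30 and 0.02), the cell cycle median being 0.51 without drdd B and 0.12 without drdd D, and so did the 10 reference genes (median 0.05). No gene passed among the 25 tested regulators of FLC, 8 heat response genes, 11 leaf senescence genes and 9 flavonoid genes, with medians of -0.03, 0.45, 0.33 and -0.22. Without drdd B the heat and senescence medians were -0.07 and -0.19.

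Of 20 glucosinolate genes none passed (median 0.24, and 0.11 without drdd B), while DESeq2 called 3. ESM1, which is known to steer glucosinolate breakdown, had 112, 70.3, 188 and 127 CPM across rdd A to D and 13.9, 24.8 and 22.6 CPM across drdd B to D (log2 fold change -2.61, SE 0.82, adjusted p = 0.230). The groups did not overlap, and the authors' deposited table gives an adjusted p of 2.98e-14. In the dme group ESM1 was at 1221 and 1401 CPM in replicates A and B and at 119 CPM in both C and D, and this spread enters the fit of all 15 libraries. With the 7 rdd and drdd libraries alone the adjusted p was 0.0543.

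The same allele difference was read side by side where ROS1, DML2 and DML3 are intact, as dme minus WT. These comparisons share no library. None of the 87 genes passed in dme against WT, where 2 genes passed in all (0.0108%), 1 higher (0.00538%) and 1 lower (0.00538%). DESeq2 called 10 (0.0539%), and 841 genes had an unadjusted p under 0.05 (4.52%). The dme minus WT difference was under 0.5 in size on the log2 scale in 74 of the 87 genes and reached 1.21 at most. The share of all tested genes under 0.5 was not computed, so this count does not set the 87 apart. They were chosen for their drdd minus rdd difference, so smaller values in the other comparison carry little weight. It had the same sign as drdd minus rdd in 39 of the 87 (44.8%), and in 46.4% of all tested genes.

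Whether the difference itself depended on the rdd background was tested with the interaction, drdd minus rdd less dme minus WT. It passed for 20 genes (0.108%), 6 positive (0.0323%) and 14 negative (0.0753%); DESeq2 called 193 (1.04%), and 1788 had an unadjusted p under 0.05 (9.61%). Of the 87 genes 17 were among the 20, 4 higher and 13 lower in drdd than in rdd. The interaction contains the drdd minus rdd difference by which the 87 were called. Their overlap and its direction are therefore partly built in and are no separate evidence. CYP706A6 had the largest interaction among them (-5.73, SE 0.33, adjusted p = 9.57e-07), with dme minus WT at 0.09. For AT5G22860 it was -4.80 (SE 0.51, adjusted p = 0.00140), for ENT6 3.84 (SE 0.48, adjusted p = 0.00441), and for AMP1 the adjusted p was 0.00229. PERK13 did not pass in edgeR (7.24, SE 1.49, adjusted p = 0.105), whereas DESeq2 gave an adjusted p of 7.45e-06. Its levels in WT and dme were at most 0.245 CPM.

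The other 3 genes of the 20 were not called between drdd and rdd. AT1G20620, annotated as catalase 3, had means of 1324 CPM in WT, 640 CPM in dme, 892 CPM in rdd and 1391 CPM in drdd (interaction 1.69, SE 0.28, adjusted p = 0.0258). SAT32 had means of 57.4, 27.8, 57.1 and 61.4 CPM in the same order (interaction 1.15, SE 0.18, adjusted p = 0.0192). MAF5 had means of 3.43, 35.8, 41.7 and 53.5 CPM (interaction adjusted p = 0.0192). In each of these 3 the dme minus WT difference was larger in size than drdd minus rdd, and MAF5 and SAT32 were the 2 genes that passed in dme against WT (adjusted p = 0.00163 and 0.00398). The count of 20 was 13 without WT B or WT C, 8 without dme B, 9 without rdd A, 7 without rdd C, 6 without drdd C and 46 without drdd D.

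**Figure D5:**
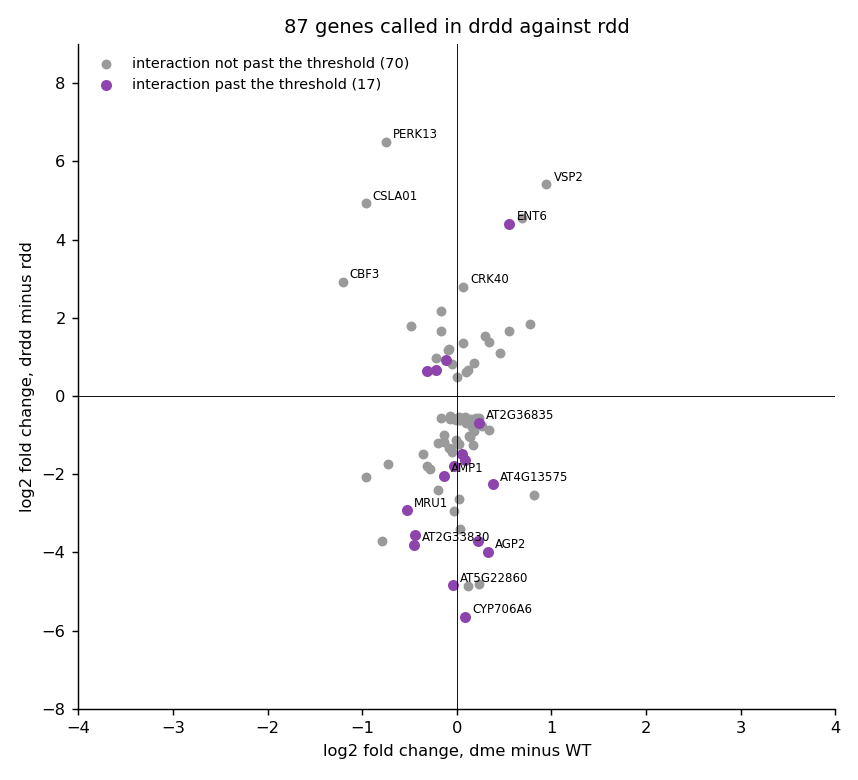
Log2 fold change of dme minus WT against that of drdd minus rdd for the 87 genes called in drdd against rdd. Points spread from -5.64 to 6.49 on the vertical axis and stay within 1.21 of 0 on the horizontal axis; the 17 genes whose interaction passed are purple. The genes were chosen by their values on the vertical axis.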

How the data were processed

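RNA of the fifth rosette leaf was sequenced after column extraction and selection of polyadenylated RNA, per the labels' protocols. The submitters' processing notes name FastQC, Trim Galore, STAR, HTSeq and DESeq2, without versions. Neither a genome build nor a strandedness option is given in the sources used here. The authors deposited whole-number counts per gene and library, and tables of their comparisons with signal values (counts divided by size factors), log2 fold changes, a score (the Wald statistic) and adjusted p-values, per the file headers. The tables served only for the values credited to them.

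From the counts, the 5 summary lines of each file were left out (no feature 1.54 to 2.17% and ambiguous 0.117 to 0.176% of the counts in genes plus these lines; the other 3 were 0). Of 37336 identifiers, 37051 matched RefSeq TAIR10.1, used for names, products and gene order. The 15 libraries held 8730340 to 23302135 counts, which sets the precision; floors use 3 counts and intervals are exact at 95%. Genes were filtered with filterByExpr (minimum count 10), scaled by TMM (factors 0.953 to 1.09) and fitted in 1 model over the 4 genotypes with edgeR 4.0.16's robust quasi-likelihood test (R 4.3.3, 11 residual degrees of freedom, common biological coefficient of variation 0.266). P-values were adjusted over all 18598 tested genes by Benjamini-Hochberg and called under 0.05; the SE is the log2 fold change divided by the root of its F statistic. The interaction was a contrast of the same model. The scripts were tested on simulated data with known changes. DESeq2 1.42.0, other scalings and filters, fewer libraries, each library left out and a replicate block were the alternatives.

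Genes named by rule were the 4 demethylase genes and FLC, the 12 called genes with the largest change in each direction whose groups do not overlap and whose higher mean is at least 1 CPM, up to 4 called members of each list, the 5 largest interactions in each direction, the 6 most abundant called genes in each direction, and the 3 called genes nearest DME. Other list members were chosen for their role and after their values were seen. The comparison, the 30 gene lists and the rule were chosen with earlier results of these data known. Letters B to D are shared by both genotypes, but the labels do not say what the letters mark. No pairing was used in the main fit, and a replicate block was an alternative.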

Additional observations from a re-analysis of the deposited data

Results flagged for a closer look

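In groups of 4 libraries, the gap of the extreme library was tested against the group's range for 50 groups, and 5 stood out; chance gives about 1 in 20. Library rdd D had 23302135 counts in genes, more than any other rdd library. VSP2 was at 1.35 CPM and BAM5 at 5.42 CPM in rdd A, above the other rdd libraries and still below every drdd library. AGP2 was at 9.74 CPM in rdd D and AT3G21530 at 10.9 CPM in rdd C, in both cases higher than in the rest of rdd and further from drdd. Groups of 3 libraries were not tested.

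The difference between drdd and rdd was not the same as that between dme and WT in the following genes, by edgeR's interaction test adjusted over all tested genes. The most negative log2 interactions were those of the P450 gene CYP706A6 at -5.73 (adjusted p = 9.57e-07), the peptidase gene AT5G22860 at -4.80 (0.00140) and the cell surface gene AGP2 at -4.32 (0.0139). They were -3.92 for the pseudogene AT4G01490 (adjusted p = 0.0221), -3.35 for AT2G33830 (0.00441), -3.13 for the expansin gene EXPA8 (0.0288), -2.40 for MRU1 (0.0332) and -1.54 for the noncoding RNA AT4G13495 (0.0257). In each of these 8 genes drdd was lower than rdd, and the dme minus WT difference reached at most -0.53, for MRU1.

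Positive interactions were 3.84 for the nucleoside transporter gene ENT6 (adjusted p = 0.00441), 1.69 for AT1G20620, annotated as catalase 3 (0.0258), and 1.15 for SAT32 (0.0192). They were 1.03 for AT1G06640 (adjusted p = 0.0192), 0.96 for the jasmonate synthesis gene AOC4 (0.01997) and 0.88 for AT5G66420 (0.0226). For AT1G20620 and SAT32 the dme mean was below the WT mean and drdd against rdd did not pass; the other 4 genes were higher in drdd than in rdd.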

How the results depend on the processing

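The main counts were 87 genes called (27 higher and 60 lower in drdd) and 20 for the interaction. DESeq2's test gave 381 (152 and 229) and 193. With only the drdd and rdd libraries there were 50 calls, 30 of them lower. With all libraries and a replicate block there were 50 calls (12 higher, 38 lower) and 12 for the interaction, and with a replicate block over libraries B to D of both genotypes 8 calls (1 higher, 7 lower). Same-letter libraries correlated in their deviations at 0.249 (B), 0.0152 (C) and 0.140 (D). Libraries of unlike letters correlated at -0.277 to 0.185, the highest being rdd C with drdd D. With so few libraries these values cannot tell whether letters pair the libraries. Leaving out 1 library at a time gave 19 to 127 calls, 3 to 55 higher, 16 to 72 lower, and 6 to 46 for the interaction. Chosen after seeing the data, leaving out rdd B and dme C gave 134 calls, 47 of them higher, and leaving out WT A and WT C as well gave 471 (240 higher, 231 lower) and 13 for the interaction. The cause of these changes was not tested. DESeq2's size factors, no filter and a stricter filter gave 86, 68 and 86 calls. No called value of a named gene reversed under any of the 24 alternatives; over genes and alternatives, 335 values fell short of the threshold, 2 passed newly and 833 kept their side. Depth limits genes under about 1 CPM, such as FLC and AT3G46370, where drdd held 0 or 1 count.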
